A study of Mus musculus with 95 samples.

Results

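The 3 genes described here encode the hormones that islet beta cells store together: Ins1 and Ins2, the 2 insulin genes of the mouse, and Iapp, which encodes amylin. They were chosen by their symbols in the deposited count table, where they are 3 of 20638 genes, and all 3 were among the 15841 genes kept by the low-count filter. RNA-seq was carried out on pancreatic islets of mice of the founder strains of the Diversity Outbred (DO) population, in 95 libraries numbered from 1 to 100 with some numbers missing. The diet of all mice was rich in fat and sugar (HFHS), with fat given as 45%. The labels tie no library to a strain, sex or age, so no groups were compared, and values are given as the lowest, the median and the highest library.

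Insulin is made as a precursor that enters the endoplasmic reticulum, is folded and joined by disulfide bonds, and is cut by the prohormone convertases on its way into the secretory granule. Mice carry a pair of insulin genes: Ins2 has the gene structure shared with other mammals, and Ins1 is a retroposed copy found in rodents. Amylin is packed into the same granules as insulin and released with it. It slows gastric emptying and acts on satiety through receptors made of the calcitonin receptor and a RAMP protein.

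Per the authors' table (GRCm38), Ins1 (ENSMUSG00000035804) lies on the plus strand of chromosome 19 from 52264323 to 52265456. Ins2 (ENSMUSG00000000215) lies on the minus strand of chromosome 7 from 142678656 to 142699510, and Iapp (ENSMUSG00000041681) on the plus strand of chromosome 6 from 142298423 to 142303961. The main GENCODE transcript of Ins1 has 2 exons and a coding sequence of 327 bases. That of Ins2 has 3 exons and 333 coding bases, and that of Iapp has 3 exons and 282 coding bases.

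The later parts of the coding sequences of the insulin genes are shown because their likeness bears on how reads could be told apart. Capitals mark bases that lie in runs of 31 or more bases found in both, bases are counted from the A of the start codon, and the sequences are GENCODE's for GRCm38.
Ins1 coding sequence, bases 100 to 327: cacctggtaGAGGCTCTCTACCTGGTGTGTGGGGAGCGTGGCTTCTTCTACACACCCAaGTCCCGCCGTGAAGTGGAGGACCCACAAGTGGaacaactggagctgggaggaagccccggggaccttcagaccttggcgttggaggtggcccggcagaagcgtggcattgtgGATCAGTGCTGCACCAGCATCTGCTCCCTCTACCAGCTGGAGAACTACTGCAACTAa
Ins2 coding sequence, bases 100 to 333: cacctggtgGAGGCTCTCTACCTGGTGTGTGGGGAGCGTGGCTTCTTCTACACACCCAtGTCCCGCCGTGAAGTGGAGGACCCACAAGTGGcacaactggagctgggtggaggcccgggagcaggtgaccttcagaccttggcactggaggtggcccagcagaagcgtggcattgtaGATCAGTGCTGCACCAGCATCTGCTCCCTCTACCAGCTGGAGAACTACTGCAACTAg
Aligned end to end over 333 columns, the whole coding sequences had 6 columns with a gap, and 302 of the other 327 matched (92.4%), with 25 mismatches. The shared stretches numbered 3, of 49, 32 and 56 bases, and together made up 41.9% of the Ins1 coding sequence and 41.1% of that of Ins2. Over all annotated transcripts, 4.55% of the 31-base words of Ins1 and 3.27% of those of Ins2 occurred in the other gene, against 0% for Iapp in any gene. Whether this likeness shaped the deposited counts was not tested. Iapp had a whole-number count in 95 of 95 libraries (to within 0.01), but Ins1 in 2 and Ins2 in 1. The sum of Ins1 and Ins2 was whole in 67 of 95. In those 67 libraries the fractions of the insulin genes thus added up to a whole count. How reads that match both genes were counted is not given, so each gene's own level, and the ratio between them, may depend on it.

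The stretches before the annotated start sites are shown beside the common movement of the 3 transcripts (below). Whether motifs in these stretches bear on it was not tested. Bases after the annotated starts were not searched, and the coding sequence begins at 52264624 for Ins1 and at 142298849 for Iapp. In the RefSeq promoter table Ins1 and Iapp were matched and Ins2 was not. Each sequence is the 250 bases before the RefSeq start in GRCm38.p6, on the plus strand, with capitals for TAAT on either strand, the core of homeodomain sites such as those of Pdx1, and for CANNTG, the E-box core.
Ins1 promoter, chr19:52264047-52264296: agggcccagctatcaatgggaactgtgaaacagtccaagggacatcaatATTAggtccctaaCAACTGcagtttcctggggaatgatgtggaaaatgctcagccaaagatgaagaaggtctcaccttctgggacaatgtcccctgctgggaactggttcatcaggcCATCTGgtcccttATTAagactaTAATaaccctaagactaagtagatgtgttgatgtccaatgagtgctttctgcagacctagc
Iapp promoter, chr6:142298175-142298424: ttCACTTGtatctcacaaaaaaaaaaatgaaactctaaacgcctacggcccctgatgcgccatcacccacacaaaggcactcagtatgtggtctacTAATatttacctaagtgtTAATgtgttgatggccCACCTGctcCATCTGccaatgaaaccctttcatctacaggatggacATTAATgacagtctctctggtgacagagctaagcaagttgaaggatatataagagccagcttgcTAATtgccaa
Ins1 held 3 TAAT and 2 CANNTG matches, and Iapp 5 TAAT and 3 CANNTG matches, some of the TAAT matches overlapping. Of 32851 mouse promoter windows of the same length, 54.9% held at least 1 TAAT and 17.3% held 3 or more. CANNTG was in 66.2% of windows, and 12.2% held 3 or more.

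Ins1 and Ins2 together took a median of 15.8% of all counts. Library 54 had the lowest share, 5.58% (95% Wilson interval 5.57% to 5.59%), and library 15 the highest, 22.9% (22.88% to 22.91%). Library totals ran from 16411809 to 34357253 counts, and the intervals cover counting error only. Library 54 also had the highest share of counts in 20 acinar genes, which encode digestive enzymes and their regulators (45.0%, against a median of 6.52% and 0.284% in library 25). Levels below are CPM, counts scaled to a common library size after edgeR's TMM adjustment, which limits the effect of such a share on the other genes. In bulk islet RNA, fewer beta cells and less hormone mRNA per beta cell cannot be told apart.

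Ins2 was the more abundant insulin transcript in every library. Its level was 34963 CPM in library 97, a median of 112930 CPM, and 161809 CPM in library 11. Ins1 ran from 19287 CPM in library 97 through a median of 45410 CPM to 66699 CPM in library 12. Iapp ran from 5212 CPM in library 97 through 13688 CPM to 18494 CPM in library 12. Library 97 was thus the lowest for all 3 genes, and libraries 11 and 12 lie next to each other at the top. Divided by the length of the main GENCODE transcript (1062, 478 and 839 bases), the median levels were 42759 CPM per kb for Ins1, 236255 for Ins2 and 16315 for Iapp. These per-length levels rest on annotated ends, since the lengths used in counting are not given.

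The genes differed in how much they varied. The biological coefficient of variation, the spread between libraries beyond counting noise, was 19.5% for Ins1, 27.7% for Ins2 and 26.2% for Iapp, against a median of 26.1% over the kept genes. Above 50% lay 24.5% of kept genes and none of the 3. Ins1 thus varied less than most kept genes, at the 36th percentile, while Ins2 and Iapp were near the middle at the 53rd and 50th. This place depends on the method and on the genes compared. With DESeq2 the 3 genes had 17.5%, 24.3% and 23.4%, against a median of 25.3%. With no low-count filter they had 19.4%, 27.5% and 26.1%, against a median of 36.0%. Genes of like abundance were not compared separately. The order was the same for the distance between the 10th and 90th percentiles, which was 0.57 log2 units for Ins1, 1.02 for Ins2 and 1.00 for Iapp, beside a median of 0.92 over genes.

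Libraries with neighbouring numbers resembled each other, and the levels were therefore also read in 12 stretches of consecutive numbers, each of 4 to 10 libraries. The stretches are no groups of the study, and differences between them are described without a test. For Ins2, 10 of the 12 stretch medians lay between 101444 CPM (libraries 76 to 85) and 133757 CPM (libraries 9 to 16). The other 2 were lower, at 84177 CPM in libraries 91 to 100 and 58208 CPM in libraries 66 to 75. Iapp showed the same 2 stretches at the bottom, at 8320 and 7627 CPM, below medians of 12027 to 15802 CPM elsewhere. For Ins1 the medians ran more closely together, from 38373 CPM in libraries 91 to 100 and 40811 CPM in libraries 66 to 75 to 54572 CPM in libraries 9 to 16. In each gene's order of medians, the ranges of neighbouring stretches overlapped. The range of stretch medians was 0.51 log2 units for Ins1, 1.20 for Ins2 and 1.05 for Iapp, beside a median of 1.00 over the kept genes.

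**Figure D1:**
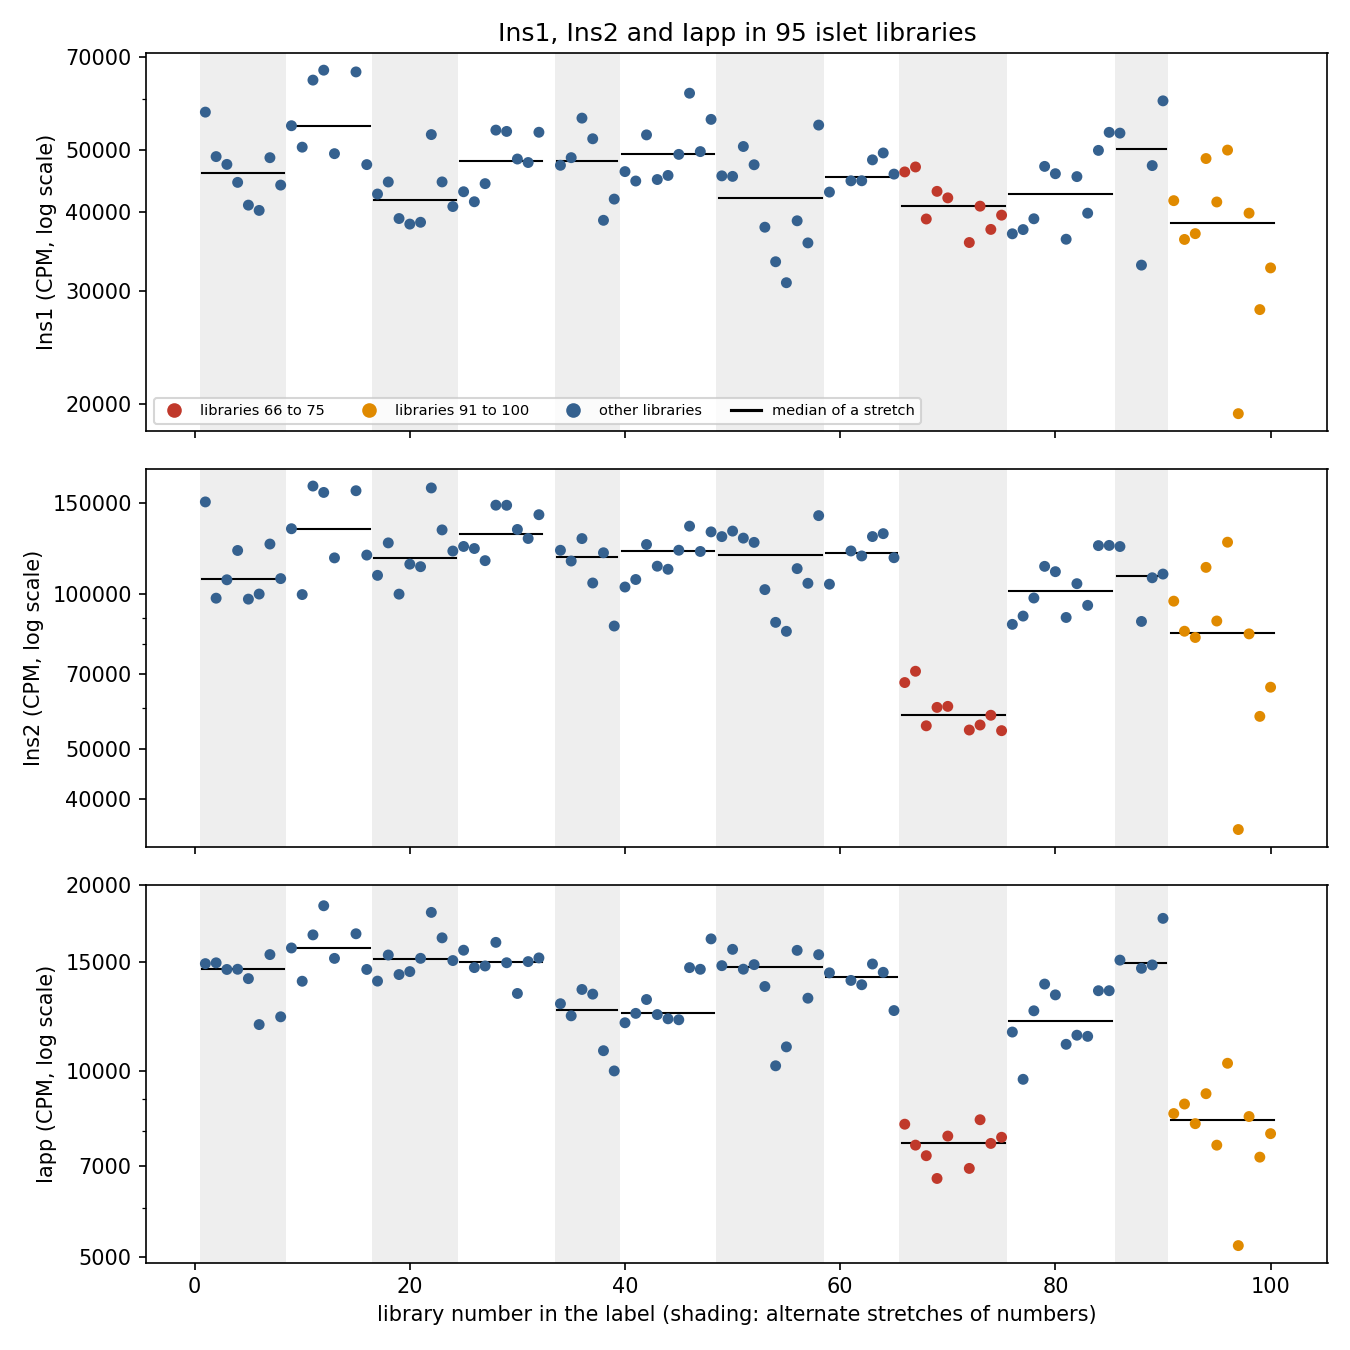
Levels of Ins1 (top), Ins2 (middle) and Iapp (bottom) in CPM on log axes, against the library number, with 1 point per library, a line at the median of each stretch of numbers and shading for alternate stretches. Libraries 66 to 75 (red) lie at 54342 to 70828 CPM for Ins2 and 6693 to 8331 CPM for Iapp, below most other libraries, but among them for Ins1; libraries 91 to 100 (orange) reach the lowest value of each gene.

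Libraries 66 to 75 were low in Ins2 and Iapp, and less so in Ins1. Over these 9 libraries Ins2 had a lowest level of 54342, a median of 58208 and a highest of 70828 CPM. Leaving out libraries 91 to 100, the other 76 libraries ran from 84639 to 161809 CPM, with no overlap. For Iapp the 9 libraries ran from 6693 through 7627 to 8331 CPM, and the other 76 from 9685 to 18494 CPM, again with no overlap. For Ins1 the 9 ran from 35788 through 40811 to 47018 CPM, inside the range of the other 76, 30953 to 66699 CPM, but with a median below their 46064 CPM. Of all kept genes, 1.5% lay lower in libraries 66 to 75 than in each of the other 76 without overlap, Ins2 and Iapp among them. With libraries 91 to 100 included, 1.02% of genes lay below the other 86, and none of the 3 hormone genes did.

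Gcg, the glucagon gene of alpha cells, had a median of 20160 CPM in libraries 66 to 75, and 12180 CPM in the other 86. It was 21476 CPM in libraries 76 to 85, where Ins2 had a median of 101444 CPM. The acinar share was 4.58% to 37.1% in libraries 66 to 75, with a median of 6.49%, and 0.284% to 45.0% in the other 86, with a median of 6.81%. The summed level of 10 macrophage genes was 77.4 to 215 CPM, with a median of 103, and 41.1 to 2141.8 CPM in the other 86, with a median of 80.0. Of these 10 genes only Mrc1 was at 0 in any library. The part of other cell types in the levels of libraries 66 to 75 was not tested.

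Libraries 91 to 100 were uneven. Ins2 ranged from 34963 CPM in library 97 to 125961 CPM in library 96, and Ins1 from 19287 to 49975 CPM in the same libraries. Iapp was at 10282 CPM or less in all 10. Libraries 97, 99 and 100 had the 3 lowest Ins2 levels of this stretch, 34963, 57918 and 65968 CPM, and the 3 highest summed levels of the 10 macrophage genes, 2141.8, 1601 and 1692 CPM. That sum was 103 to 2141.8 CPM over the 10 libraries, with a median of 543, and 41.1 to 340 CPM over the 76 libraries outside 66 to 75 and 91 to 100. How far cells other than beta cells account for the low hormone levels there was not tested.

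The ratio of Ins1 to Ins2 counts separated libraries 66 to 75 from every other library. It is a ratio of counts without a correction for length, so it is read only between libraries. Over the 95 libraries it ran from 0.323 in library 38 through a median of 0.409 to 0.732 in library 73. In libraries 66 to 75 it was 0.645 to 0.732, with a median of 0.694. The other 86 libraries ran from 0.323 through 0.402 to 0.552, the highest being library 97. The empty interval between 0.552 and 0.645 (0.22 log2 units, 19.0% of the whole log2 range) was the widest among the 95 sorted values, with 9 libraries above it and 86 below. In those 9 libraries the ratio was high with Ins1 inside its usual range and Ins2 below it, as the levels above show.

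Outside libraries 66 to 75 the ratio still differed by stretch. The lowest stretch median was 0.339 in libraries 17 to 24, followed by 0.362 in 25 to 32, 0.368 in 49 to 58 and 0.378 in 59 to 65. Medians in the other stretches lay between 0.407 (1 to 8) and 0.458 (91 to 100). No library of stretches 17 to 24, 25 to 32 and 49 to 58 exceeded 0.395, while none of stretches 9 to 16, 40 to 48, 76 to 85 and 91 to 100 fell below 0.397. These 7 stretches were singled out after the values were seen. Some stretches were tight, such as 76 to 85 at 0.397 to 0.434 and 25 to 32 at 0.339 to 0.382. Others were wide: libraries 34 to 39 ran from 0.323 to 0.496, and libraries 86 to 90 from 0.373 to 0.546.

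**Figure D2:**
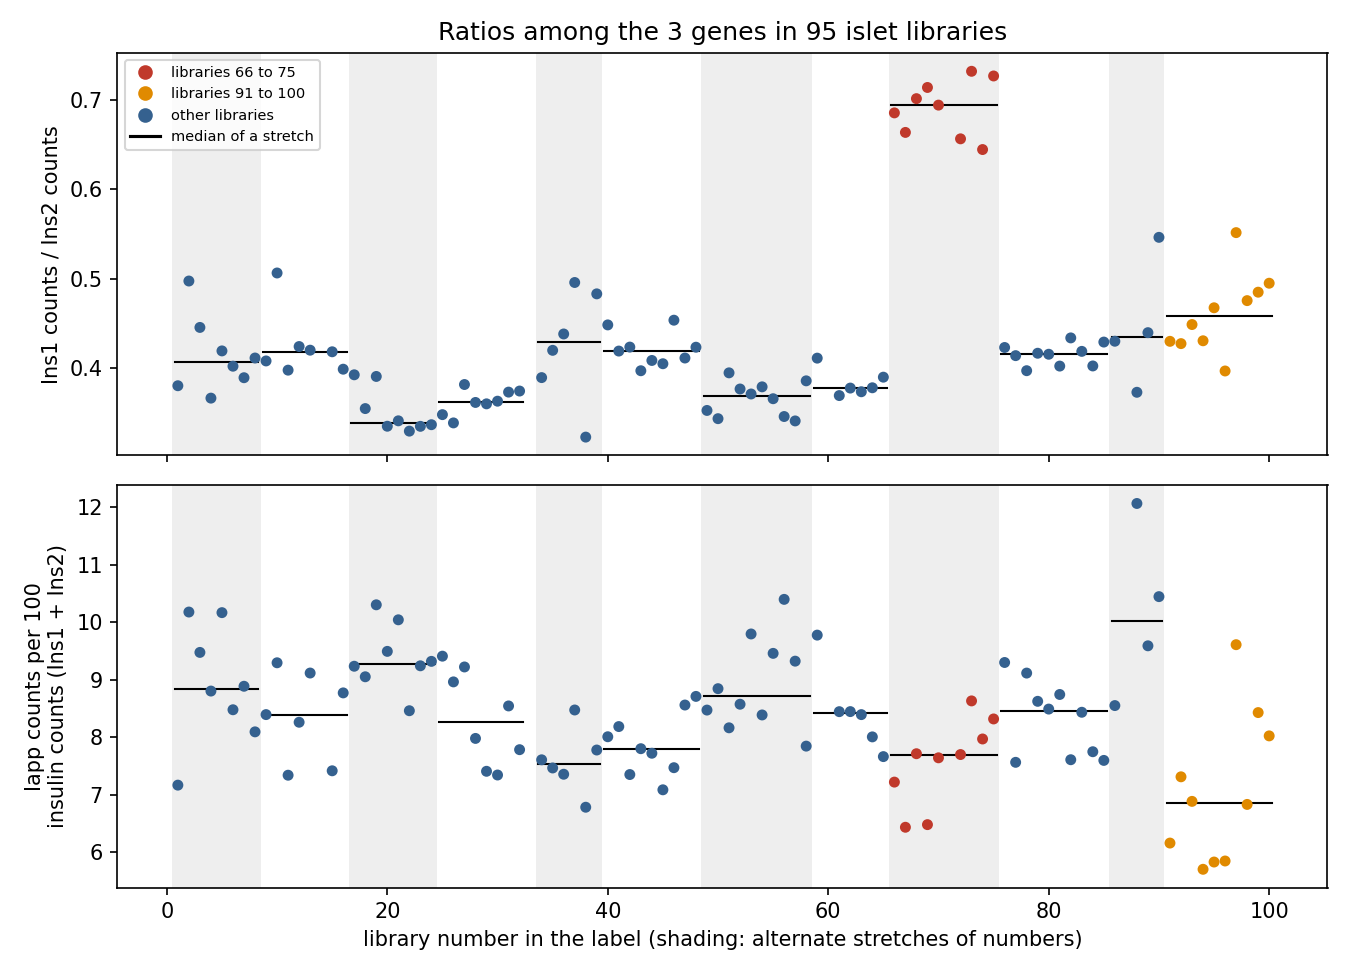
Ins1 counts divided by Ins2 counts (top) and Iapp counts per 100 counts of Ins1 and Ins2 together (bottom) against the library number, with 1 point per library and a line at the median of each stretch. The ratio of the insulin genes lies at 0.645 to 0.732 in libraries 66 to 75 (red) and at or below 0.552 elsewhere, whereas Iapp per 100 insulin counts in those libraries lies among the others.

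Iapp relative to the sum of the insulin genes was read in the same way. Per 100 insulin counts there were 5.70 Iapp counts in library 94, a median of 8.39, and 12.1 in library 88. Between the 10th and 90th percentiles this ratio spanned 0.43 log2 units, against 0.66 for Ins1 over Ins2, but over the 86 libraries other than 66 to 75 it spanned 0.42, against 0.45. Within a stretch the Iapp ratio had the wider range in 9 of 12. Libraries 66 to 75 had 6.43 to 8.63, with a median of 7.70, and all but libraries 67 and 69 lay within the 6.78 to 12.1 of the other 76. The lowest stretch median, 6.85, was that of libraries 91 to 100, and the highest, 10.0, that of the 4 libraries from 86 to 90, with 9.28 in libraries 17 to 24. Libraries 91, 94, 95 and 96, at 5.70 to 6.16, were the 4 lowest of all 95. In these libraries the acinar share was 15.6% to 29.6%, and library 93 had 33.4% with a ratio of 6.88. Over all 95 libraries the ratio had a Spearman rho of -0.051 with the mean score of the acinar genes (permutation, adjusted p = 0.753). Within libraries 91 to 100, given without a test, rho was -0.721 with that score and 0.915 with the macrophage score. The part of the acinar share in the low ratios was not tested.

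Across libraries the 3 transcripts rose and fell together. Over the 86 libraries other than 66 to 75, log2 levels of Ins1 and Ins2 had a Spearman rho of 0.767 and a Pearson r of 0.862. For Ins2 and Iapp rho was 0.722 and r 0.820, and for Ins1 and Iapp rho was 0.557 and r 0.689. Each permutation p was 1e-05, the smallest that 100000 resamples can give (two-sided), and adjusted over 23 relations it was 7.67e-05 for rho and 4.6e-05 for r. Without libraries 97 and 99, farthest from the median, r was 0.793, 0.738 and 0.560 in the same order. Within libraries 66 to 75, given without a test, rho was 0.817 for Ins1 and Ins2, 0.167 for Ins2 and Iapp, and 0.233 for Ins1 and Iapp. Over all 95 libraries rho was 0.753, 0.792 and 0.574 in that order, with r at 0.741, 0.883 and 0.627 and the same p-values. Without the 2 libraries farthest from the median these r were 0.660, 0.863 and 0.536. The 3 levels of a library share its scaling, and how reads that match both insulin genes were counted is not given. The part of either in these relations was not tested. The permutations shuffled libraries freely, also in the alternatives below, as if each were independent. The labels do not say which libraries share a strain or an animal, and libraries with neighbouring numbers resembled each other. The p-values may therefore be too small, and the same holds for the edgeR fits below, which also take libraries as independent.

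The relations held within stretches of numbers. In the 11 stretches of 6 or more libraries, rho of Ins1 with Ins2 was positive in 11, from 0.314 to 0.976. Ins2 with Iapp was positive in 11 (0.167 to 0.905), and Ins1 with Iapp in 11 (0.233 to 0.893). With the median of each stretch removed from every library, the order of the pairs changed. The values of rho were then 0.866 for Ins1 with Ins2, 0.710 for Ins1 with Iapp and 0.661 for Ins2 with Iapp (permutation, adjusted p = 7.67e-05 for each). Pooled in this way the insulin genes had the highest rho, while over all libraries Ins2 and Iapp did. Single stretches differed: in libraries 34 to 39 rho was 0.314 for Ins1 with Ins2 and 0.886 for Ins1 with Iapp, and in libraries 17 to 24 it was 0.714 for Ins1 with Ins2 and 0.905 for Ins2 with Iapp.

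**Figure D3:**
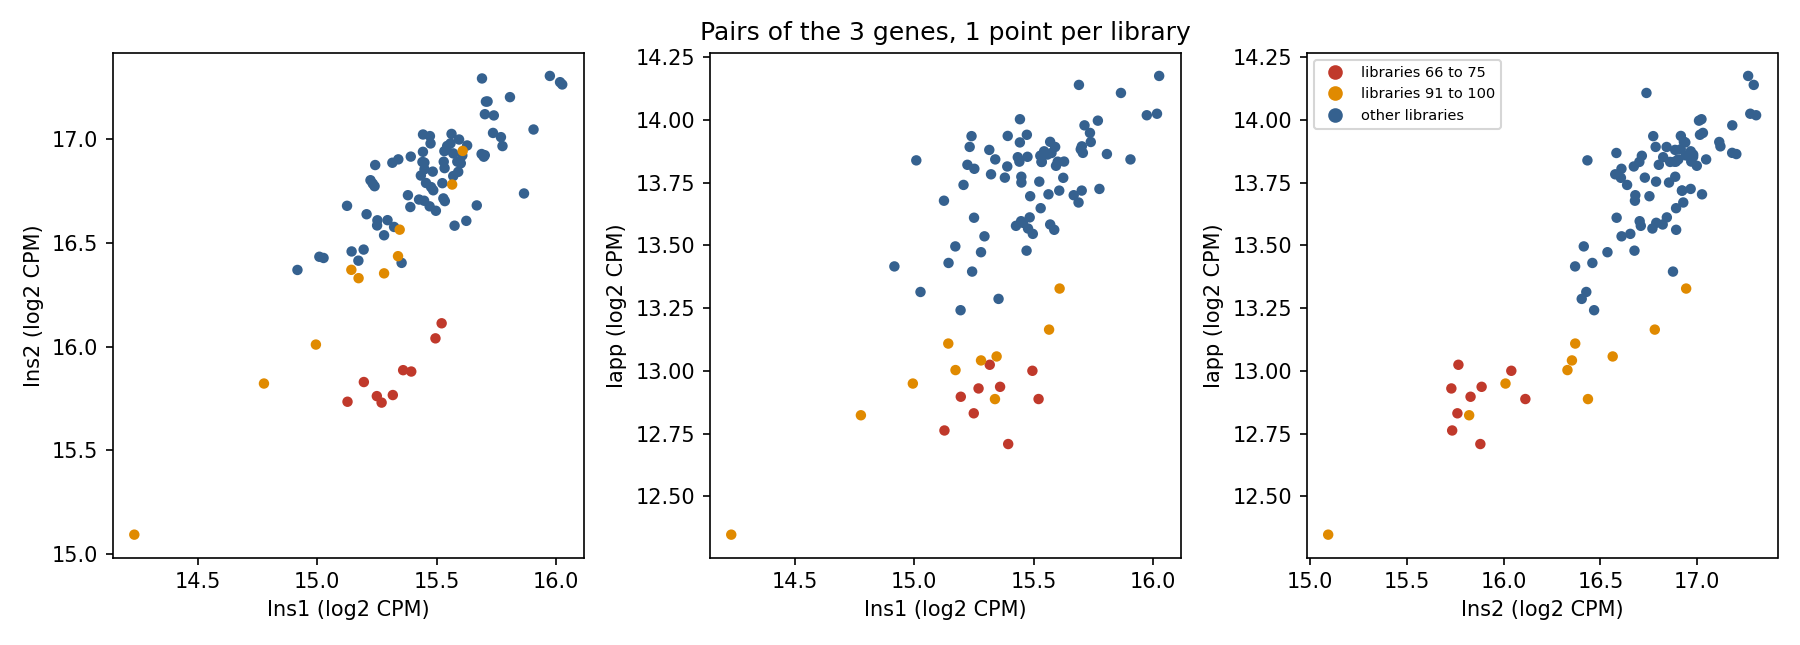
Log2 CPM of Ins1 against Ins2 (left), Ins1 against Iapp (middle) and Ins2 against Iapp (right), 1 point per library. Libraries 66 to 75 (red) form a band of their own below the other points for Ins1 and Ins2, where rho over the other 86 libraries is 0.767, and extend the main cloud for Ins2 and Iapp; the lowest point in each panel is library 97.

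To place the hormone genes among other transcripts, every kept gene was fitted with the log2 level of Ins1, Ins2 or Iapp as the covariate (edgeR quasi-likelihood test, adjusted p under 0.05). A slope is the change in the gene's log2 level per log2 unit of the hormone gene. With Ins2, 26.6% of genes rose and 33.5% fell. The shares were 20.2% and 27.7% with Ins1, and 27.8% and 33.9% with Iapp. With the stretch as a factor in the fit, 20.9% of genes rose and 25.5% fell with Ins2, 17.0% and 20.1% with Ins1, and 17.2% and 18.5% with Iapp. These shares are the background for the counts below. The median rho over all kept genes was -0.013 with Ins2, -0.011 with Ins1 and -0.013 with Iapp, and both sides of each fit share the library's scaling.

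Transcription factors that act on the insulin genes were divided. Of 14 in the list, 6 rose and 3 fell with Ins2, beside 26.6% and 33.5% of all genes, and the median rho was 0.023. With the stretch as a factor 9 rose and 2 fell, beside 20.9% and 25.5%. Glis3, a zinc finger factor of beta cells, had the highest rho with Ins2, 0.619 (slope 0.72, SE 0.09, edgeR adjusted p = 1.08e-11), and ran from 26.4 to 168 CPM. Neurod1, Pax6, Rfx6, Nkx2-2 and Mafa also rose with Ins2, with slopes of 0.55, 0.36, 0.40, 0.18 and 0.25. Pdx1, the homeodomain activator of the insulin promoter, had a slope of 0.03 (edgeR adjusted p = 0.833), and 0.35 with the stretch as a factor (adjusted p = 0.0386). Nkx6-1 likewise had a slope of 0.08, and 0.54 with the stretch as a factor. Tcf3 and Ldb1 were among those that fell with Ins2, with slopes of -0.34 and -0.10.

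With Iapp 6 factors rose and 3 fell, beside 27.8% and 33.9% of all genes. With Ins1 7 rose and 3 fell, beside 20.2% and 27.7%. In the fit with the stretch as a factor 6 factors rose and 2 fell with each of Iapp and Ins1. As a mean score of the 14 factors, the relation was weak by rank: rho was 0.023 with Ins1, -0.004 with Ins2 and -0.097 with Iapp (permutation, adjusted p = 0.945, 0.995 and 0.50). Pearson's r was 0.308, 0.235 and 0.214 (adjusted p = 0.00929, 0.0437 and 0.0646), and 0.036, 0.084 and 0.089 without the 2 libraries farthest from the median, so r rested on those libraries. On plain CPM, without the adjustment of library sizes, rho was 0.539, 0.385 and 0.390 and passed (adjusted p = 2.56e-05, 0.000287 and 0.00023). Other settings gave other directions. For Iapp rho was -0.324 without libraries 91 to 100 and -0.432 in libraries numbered 50 or lower (adjusted p = 0.00993 and 0.011). For Ins1 it was -0.342 in libraries numbered 50 or lower (adjusted p = 0.0447), and for Ins2 0.239 with stretch medians removed (adjusted p = 0.0467).

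Proteins that bind the insulin messenger RNA gave a short list of 4. Of these 2 fell with Ins2 and 0 rose, beside 33.5% and 26.6% of all genes. Elavl1 (HuR, an RNA-binding protein) had a slope of -0.14 (SE 0.03, edgeR adjusted p = 2.13e-05). Pabpc1, the cytoplasmic poly(A)-binding protein, had a slope of -0.24 although its rho was 0.035. It shares 16.1% of its 31-base words with other genes, so its own level is uncertain. Ptbp1, which stabilises insulin mRNA, had a slope of -0.01 with Ins2 (adjusted p = 0.915).

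Genes of import and folding in the endoplasmic reticulum rose with Ins1 in 14 of 20 cases and fell in 0, beside the 20.2% and 27.7% of all genes. The median rho of the list with Ins1 was 0.216. With Ins2, 9 rose and 2 fell, beside 26.6% and 33.5% of all genes. With Iapp 5 rose and 3 fell, beside 27.8% and 33.9%, so the number rising was near the share of all genes. Fitted with the stretch as a factor, 12, 11 and 4 rose with Ins1, Ins2 and Iapp, and 0 fell. Of all genes 17.0%, 20.9% and 17.2% rose in those fits, again near the number for Iapp. Ero1lb, the oxidase that makes disulfide bonds in beta cells, had slopes of 0.70 with Ins1, 0.26 with Ins2 and 0.18 with Iapp. The last did not pass the test (edgeR adjusted p = 0.152). Pdia3, a disulfide isomerase, had the highest rho with Ins2 of the list, 0.548, and a slope of 0.21 (SE 0.04, edgeR adjusted p = 7.66e-06). Hspa5 (BiP), the main chaperone, had slopes of 0.36 with Ins1 and 0.21 with Ins2. Pdia4 fell with Ins2 (slope -0.24, edgeR adjusted p = 0.00116), but its slope was 0.01 with the stretch as a factor (adjusted p = 0.958).

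The mean score of these 20 genes had rho 0.331 and r 0.390 with Ins1 (permutation, adjusted p = 0.00468 and 0.000526), with r 0.284 without libraries 97 and 99. Within the 11 stretches rho was positive in 9. With Ins2 rho was 0.228 (adjusted p = 0.0512) and r 0.187 (adjusted p = 0.100), and with Iapp 0.066 (adjusted p = 0.668) and r 0.063 (adjusted p = 0.596). On plain CPM these 2 rho were 0.453 and 0.468 and passed (adjusted p = 4.6e-05 and 2.56e-05). The relation with Ins2 lay near the threshold. It also passed with stretch medians removed (rho 0.268, adjusted p = 0.0267), without libraries 66 to 75 (rho 0.352, adjusted p = 0.00348), without libraries above 25% acinar counts (rho 0.299, adjusted p = 0.0253), on DESeq2 size factors, on totals without acinar and hormone genes and on variance-stabilised values (rho 0.234, 0.250 and 0.236, adjusted p = 0.0481, 0.0336 and 0.0464). With Ins2 it did not pass in libraries numbered above 50 (rho 0.044, adjusted p = 0.77) or 50 or lower (rho 0.322, adjusted p = 0.0591). Nor did it without libraries 91 to 100 (rho 0.203, adjusted p = 0.131) or with a prior count of 0.5 (rho 0.228, adjusted p = 0.0512). Iapp relative to the insulin genes was lower where the score was higher. Here rho was -0.356 and r -0.320 (permutation, adjusted p = 0.00271 and 0.00515), with r -0.267 without libraries 94 and 95, and rho -0.356 with stretch medians removed, but -0.094 on plain CPM (adjusted p = 0.465). Whether Ins1 and Iapp differ in their relation with the score was not tested.

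Enzymes that cut and trim the prohormones included the gene with the highest rho with Ins2 among genes with a median of 10 CPM or more, other than Ins1 and Iapp. Cpe encodes carboxypeptidase E, which removes basic residues after the convertases have cut. It had a rho of 0.794 with Ins2 and 0.813 with Iapp, and ran from 932 through 2828 to 4250 CPM. Its slope was 0.77 with Ins2 (SE 0.05) and 0.86 with Iapp (SE 0.05), and 0.62 and 0.88 with the stretch as a factor. The convertase genes Pcsk1 and Pcsk2 had slopes of 0.17 and 0.11 with Ins2, neither past the test (edgeR adjusted p = 0.0855 and 0.195). With the stretch as a factor their slopes were 0.46 and 0.37 and passed. Of the 6 processing genes, 1 rose with Ins2, 5 with Ins1 and 2 with Iapp, beside 26.6%, 20.2% and 27.8% of all genes. The numbers for Ins2 and Iapp were thus near the share of all genes. With the stretch as a factor 6, 5 and 5 rose, beside 20.9%, 17.0% and 17.2% of all genes. Of the 6 genes, 0 fell in any of these fits.

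Of 13 granule proteins, 7 rose with Ins2, 10 with Ins1 and 6 with Iapp, and 0 fell. Of all genes 26.6%, 20.2% and 27.8% rose. With the stretch as a factor 12 of 13 rose with each of the 3, against backgrounds of 20.9%, 17.0% and 17.2%. The median rho with Ins2 was 0.208, and 0.429 with stretch medians removed. Scg3, secretogranin III, had rho 0.743 with Ins2 and 0.762 with Iapp, with a slope of 0.66 (SE 0.06) with Ins2. Chga, chromogranin A, had slopes of 1.30 with Ins2 and 1.42 with Iapp, which were 0.55 and 0.54 with the stretch as a factor. Slc30a8, the zinc transporter that loads the granule, had a slope of 0.17 with Ins2 (edgeR adjusted p = 0.180), and 0.59 with the stretch as a factor. Rab3a, a granule GTPase, had a slope of 0.08 (adjusted p = 0.332), and 0.42 with the stretch as a factor.

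Of 6 genes of glucose sensing, 4 rose with each hormone gene, beside 20.2% to 27.8% of all genes, and 0 fell. Among those that rose were the transporter gene Slc2a2 (slope 0.49 with Ins2), and Abcc8 and Kcnj11, the subunits of the ATP-sensitive potassium channel (0.71 and 0.33). The incretin receptor genes Glp1r and Gipr had slopes of -0.04 and -0.03 with Ins2 (edgeR adjusted p = 0.787 and 0.832). Gipr rose with the stretch as a factor (slope 0.49, SE 0.12, adjusted p = 0.000736) and Glp1r had a slope of 0.13 (adjusted p = 0.332). Among 11 genes of insulin receptor signalling, 5 rose with Ins2 and 0 fell, but with the stretch as a factor 2 rose and 4 fell. Of all genes 26.6% rose and 33.5% fell with Ins2, and 20.9% and 25.5% with the stretch as a factor. Irs2, the insulin receptor substrate of beta cells, rose with a slope of 1.06 (SE 0.23, edgeR adjusted p = 5.84e-05), and 0.87 with the stretch as a factor. Ide, the protease that degrades insulin and amylin, had a slope of -0.07 (adjusted p = 0.0996), and -0.25 with the stretch as a factor.

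Amylin receptor genes were low in these islets. Of 4 in the list, 3 passed the filter, and Ramp1, Ramp2 and Ramp3 had medians of 8.83, 9.94 and 6.45 CPM. With Iapp, 1 fell and 0 rose: Ramp2, with a slope of -0.28 (edgeR adjusted p = 0.0365), and 0.20 with the stretch as a factor (adjusted p = 0.377). The number falling was near the 33.9% of all genes. Ramp1 had a slope of -0.47 with Iapp (adjusted p = 0.0569), and -1.35 with the stretch as a factor (SE 0.27, adjusted p = 4.55e-05).

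**Figure D4:**
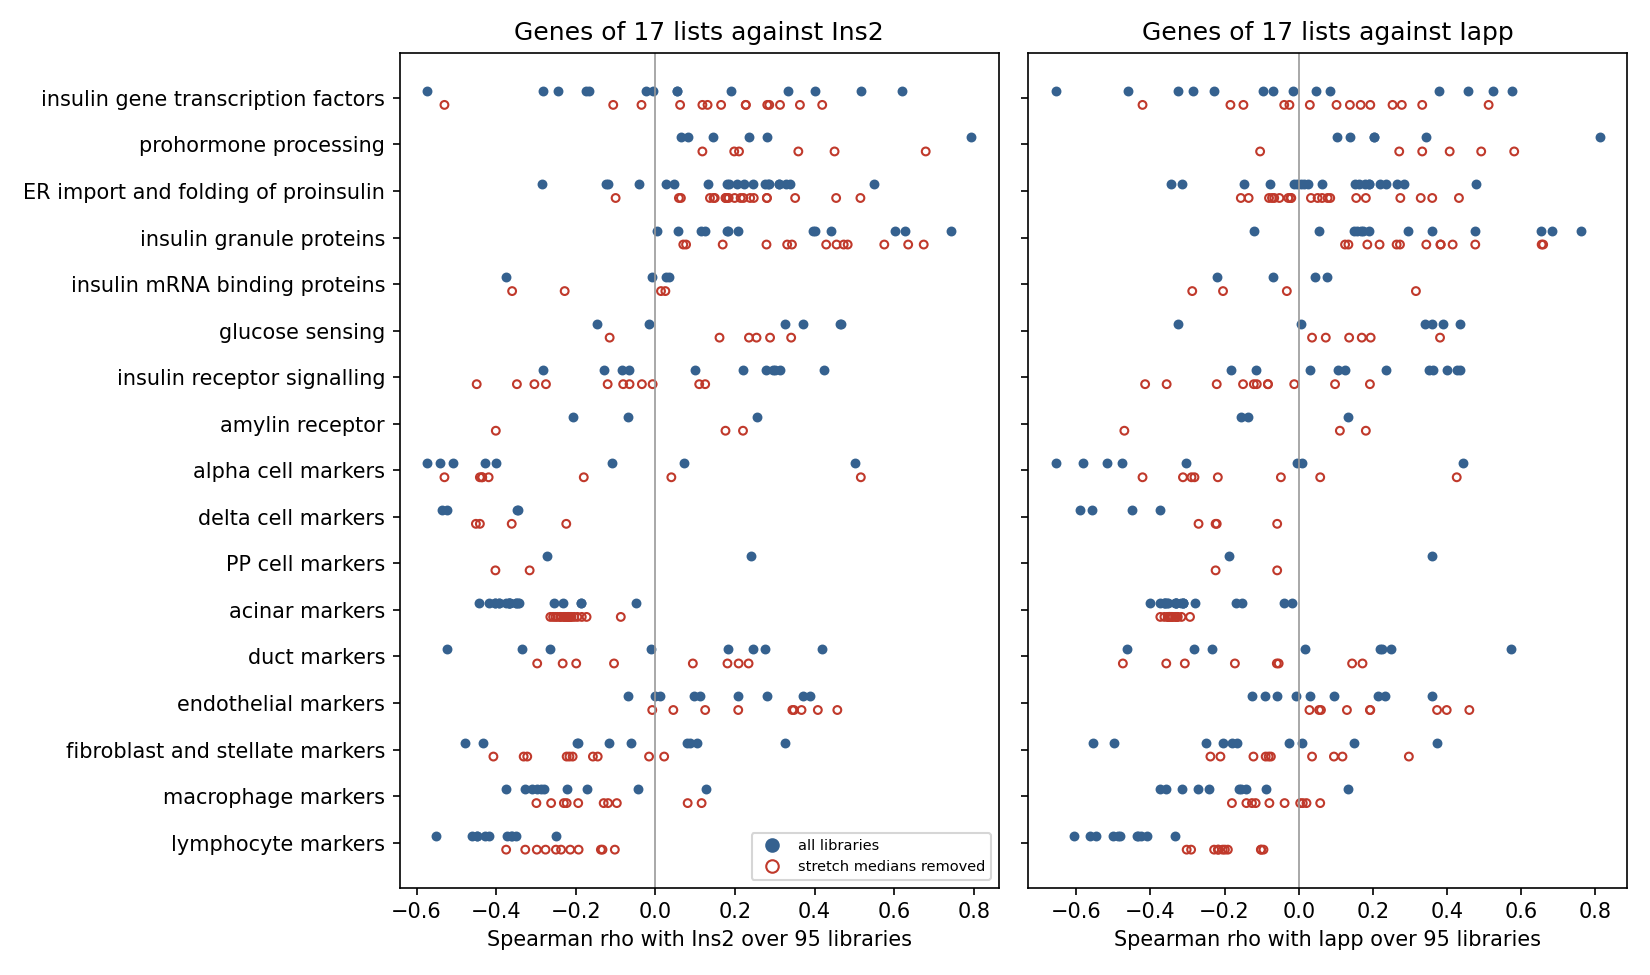
Spearman rho of each gene of 17 lists with Ins2 (left) and Iapp (right) over 95 libraries, as filled points for all libraries and open circles with stretch medians removed. Granule proteins lie mostly to the right of 0, with Scg3 at 0.743 and 0.762, and lymphocyte markers to the left in both panels.

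Markers of the other cells of an islet preparation were read as lists. Of all genes, 27.7%, 33.5% and 33.9% fell with Ins1, Ins2 and Iapp. With the stretch as a factor 20.1%, 25.5% and 18.5% did. Of 8 alpha cell genes, 5 fell and 1 rose with Ins2. Gcg had a slope of -0.61 with Ins2 (edgeR adjusted p = 0.000415), and the vitamin D-binding protein gene Gc rose at 0.81. All 4 delta cell genes fell with Ins2, and with the stretch as a factor 2 fell. Hhex, the delta cell factor, had rho -0.535 and a slope of -1.24 (SE 0.13). Of 20 acinar genes, 7 fell with Ins2, near the 33.5% of all genes, and 15 fell with Ins1 and 15 with Iapp. These counts became 3, 3 and 20 with the stretch as a factor. All 11 lymphocyte genes and 9 of 10 macrophage genes fell with each of the 3, with Cd14 the macrophage exception each time. In the fit with the stretch as a factor, 6, 11 and 6 of the lymphocyte genes and 5, 8 and 2 of the macrophage genes fell with Ins1, Ins2 and Iapp. Of 9 endothelial genes 6 rose and 1 fell with Ins1, 4 rose and 2 fell with Ins2, and 3 rose and 2 fell with Iapp. Of all genes, 20.2%, 26.6% and 27.8% rose with Ins1, Ins2 and Iapp. With the stretch as a factor 5, 2 and 3 endothelial genes rose and 0, 1 and 0 fell, beside 17.0%, 20.9% and 17.2% of all genes rising. In the duct and the fibroblast lists the counts with Ins2 were 4 rising and 2 falling of 8, and 1 rising and 6 falling of 10. They were 3 and 1 for duct genes with the stretch as a factor, and 0 and 9 for fibroblast and stellate genes.

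The acinar score had rho -0.360 with Ins2, -0.318 with Iapp and -0.234 with Ins1 (permutation, adjusted p = 0.00201, 0.00595 and 0.0483). Pearson's r was -0.208, -0.257 and -0.191 (adjusted p = 0.0708, 0.0253 and 0.0984), and -0.263, -0.261 and -0.266 without the 2 libraries farthest from the median. Without the libraries with over 25% of counts in acinar genes, rho with Iapp was -0.189 (adjusted p = 0.181) and with Ins1 -0.123 (adjusted p = 0.385). With stretch medians removed rho with Ins2 was -0.216 and with Ins1 -0.205 (adjusted p = 0.0744 and 0.0903). The macrophage score had rho -0.257 with Ins2 and -0.247 with Iapp (adjusted p = 0.0309 and 0.0361), with r at -0.488 and -0.524 (adjusted p = 4.6e-05 for each). Without libraries 91 to 100 these rho were -0.103 and -0.018 (adjusted p = 0.464 and 0.903), and without libraries 66 to 75 they were -0.095 and -0.080 (adjusted p = 0.549 and 0.571). On plain CPM their direction turned, to 0.035 and 0.108 (adjusted p = 0.769 and 0.405). The share of other cells in each library was not measured, and its part in the levels of the hormone genes was not tested.

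Because libraries 66 to 75 stand apart in the ratio of Ins1 to Ins2, its relations with the scores are given with and without them. Over all 95 libraries the ratio had rho 0.277 with the macrophage score (permutation, adjusted p = 0.0185), and 0.307 with stretch medians removed (adjusted p = 0.0104). Over the other 86, a set chosen after the data were seen, rho was 0.120 (adjusted p = 0.472) and r 0.452 (adjusted p = 0.000164), which was 0.327 without libraries 90 and 97. Taking only libraries 91 to 100 away from the 95 brought rho with this score to 0.157 (permutation, adjusted p = 0.278). Taking away every library past 25% in acinar share brought it to 0.187 (adjusted p = 0.181). Inside stretch 91 to 100 it was 0.758, given untested. Among the 11 stretches it was positive in 6, with a median of 0.0. Over the 95, rho with the acinar, transcription factor and folding scores was 0.170, -0.001 and 0.001 (adjusted p = 0.168, 0.995 and 0.995). Over the 86, with the acinar, transcription factor and folding scores rho was 0.192, -0.138 and -0.109 (adjusted p = 0.178, 0.389 and 0.507). In the fit across genes over all 95 libraries 29.1% of genes rose and 24.5% fell with the ratio, but 11.0% and 5.66% with the stretch as a factor. Without libraries 66 to 75 the shares were 27.3% and 21.9%. Of the 10 macrophage genes, 9 rose with the ratio in both fits, and of the 10 fibroblast and stellate genes 6 rose, and 9 with the stretch as a factor. Over the 95 libraries Iapp fell with the ratio (slope -0.94, SE 0.12, edgeR adjusted p = 2.79e-10; adjusted p = 0.00252 without libraries 66 to 75), and had a slope of -0.23 with the stretch as a factor (adjusted p = 0.453).

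The genes whose levels ran most like each hormone gene were named by rho among genes with a median of 10 CPM or more, and are described without a test. For Ins1 they were Ntrk2, the receptor of the neurotrophin BDNF (rho 0.750), the calcium-binding protein gene Necab2 (0.745), the tetraspanin gene Tspan13 (0.717), Gnptg, which takes part in tagging lysosomal enzymes (0.701), and the acid-sensing channel gene Asic1 (0.700). Ntrk2 ran from 38.9 through 134 to 224 CPM, with a slope of 1.36 (SE 0.11). With stretch medians removed, rho of the 5 genes with Ins1 was 0.698 to 0.768. For Ins2 they were Cpe (0.794), Fam3a, which encodes a secreted protein (0.766), Enho, the precursor of adropin (0.761), Tspan13 (0.760) and Lhfpl4 (0.758). Their rho was 0.560 to 0.728 with stretch medians removed. For Iapp they were Wls, the sorting receptor of Wnt proteins (0.824), Cpe (0.813), Tmem59 (0.807), the late endosomal GTPase gene Rab7 (0.795) and the trans-Golgi protein gene Tgoln1 (0.784). Rab7 shares 16.3% of its words with other genes. For Rab7, Tgoln1 and Tmem59, rho with Iapp was 0.291, 0.350 and 0.410 with stretch medians removed, so much of the likeness lay between stretches.

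Genes that ran most opposite were Ikzf2, Pum3, Spata13, Ptprj and Enpp2 for Ins1, with rho from -0.632 to -0.605. For Ins2 they were Rab11fip4, the sorting nexin gene Snx18, Cdk17, Spata13 and Eri1 (-0.749 to -0.658). For Iapp they were Sbf1, Arhgef1, Nop56, Srsf2 and Isyna1 (-0.787 to -0.741). Rab11fip4 and Snx18 kept rho of -0.725 and -0.665 with Ins2 once stretch medians were removed, whereas Nop56 had -0.228 with Iapp. Ptprj and Nop56 share 11.5% and 22.4% of their words with other genes.

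For the ratio of Ins1 to Ins2 the highest rho over the 95 libraries were those of Dusp6, the phosphatase of ERK kinases (0.745), the tetraspanin gene Cd81 (0.737), Tpm3-rs7 (0.723), the adhesion molecule gene L1cam (0.718) and Ppm1f (0.703). The lowest were those of Nf2, which encodes merlin (-0.782), Pcyt1a (-0.762), Dtnbos (-0.755), Atp6v1c1 (-0.750) and Paxip1 (-0.750). With stretch medians removed they ran from 0.129 for L1cam to 0.415 for Dusp6, and from -0.371 for Atp6v1c1 to -0.147 for Dtnbos. Tpm3-rs7 shares 78.6% of its words with other genes, and Dtnbos 6.68%.

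The nearest kept genes on the chromosome had rho between -0.210 and 0.209 with the hormone genes over all libraries. Beside Ins1, Sorcs1 and Xpnpep1 had rho of -0.045 and 0.209 with it. With stretch medians removed these were -0.478 and 0.099, and with the stretch as a factor Sorcs1 fell with Ins1 (slope -0.81, edgeR adjusted p = 0.00319). On the lower side of Ins2, Igf2, the insulin-like growth factor gene, had a median of 5.82 CPM and rho 0.128. It rose with Ins2 (slope 0.50, edgeR adjusted p = 0.0412), but fell with the stretch as a factor (slope -0.53, adjusted p = 0.0354). Th, the tyrosine hydroxylase gene on the other side, had a median of 68.5 CPM and rho -0.046. Igf2 shares 61.9% of its words with Gm49394, an overlapping GENCODE gene, so its level is uncertain. Iapp lies within the span of Slco1a5 (142234227 to 142322981 on chromosome 6), which is on the opposite strand. Slco1a5 had a median of 2.30 CPM and rho 0.018 with Iapp, and 0.446 with stretch medians removed. The use of strand in counting is not given, so reads of the 2 genes may not have been told apart there. Pyroxd1, on the other side of Iapp, had rho -0.210, and 0.267 with stretch medians removed.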

How the data were processed

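Islet RNA was captured by its poly(A) tail and made into libraries with the KAPA mRNA HyperPrep kit, per the labels' protocols. The authors deposited estimated counts per gene, not normalized, and a table of variance-stabilised values on a log2-like scale. The submitters' processing notes name GRCm38 and DESeq2, without a role. The aligner, the counter, its use of strand and the annotation are not given in the sources used here. The genes, lists, stretches of library numbers and tests were chosen with earlier results of these data known. Stretches were set from the library numbers and are no groups of the study.

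Counts were rounded, and 15841 genes were kept, those reaching a CPM of 1 in 10 or more of the 95 libraries. CPM used TMM library sizes in edgeR 4.0.16 (R 4.3.3), and log2 CPM a prior count of 2. Each kept gene was fitted with edgeR's quasi-likelihood test on the log2 CPM of Ins1, Ins2 or Iapp, or on the log2 ratio of Ins1 to Ins2, with Benjamini-Hochberg adjustment over all kept genes. Correlations used two-sided permutation tests with 100000 resamples, adjusted over 23 relations. A score is the mean z-scored log2 CPM of a list. Shared sequence was counted as 31-base words of GENCODE M21 transcripts. Named genes are the 5 with the highest and the 5 with the lowest rho among genes whose median reached 10 CPM, the highest and lowest of each list with Ins2 and Iapp, the nearest kept neighbours, and, chosen after their values were seen, the other list genes named in the text. Some genes of the lists are counted but not reported here by name.

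On simulated counts for the fit with Ins2, 95 of 100 genes with a slope of 0.5 and 100 of 100 with a slope of 1 were called, and 7 of 15640 without one. These calls describe the simulated counts only. In the real counts, libraries with neighbouring numbers resembled each other and genes differed in their spread. The error rate of the fits on the real counts was not tested. Alternatives were DESeq2 1.42.0 (size factors, dispersions, Wald test), plain CPM, totals without acinar and hormone genes, a prior count of 0.5, no low-count filter, the variance-stabilised values, stretches as a factor, libraries up to and above number 50, and leaving out libraries 91 to 100 or those above 25% acinar counts. Leaving out libraries 66 to 75 was added after seeing the data.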

Additional observations from a re-analysis of the deposited data

How the results depend on the processing

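The correlations among Ins1, Ins2 and Iapp kept their direction and passed the test in every alternative run, with the lowest rho 0.393 (Ins1 and Iapp, libraries numbered 50 or lower) and the highest 0.898 (Ins2 and Iapp, plain CPM). Of the alternative values for the other relations, 148 kept the direction and the side of the threshold, 12 passed where the reported value did not, 21 no longer passed and 39 changed direction, many of them with rho near 0. Those 39 rho were as follows.

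With the macrophage score, they were 0.194, 0.035 and 0.108 for Ins1, Ins2 and Iapp on plain CPM. In libraries numbered 50 or lower they were 0.036, 0.098, 0.061, -0.028 and 0.031 for Ins1, Ins2, Iapp, the ratio of Ins1 to Ins2 and that of Iapp to insulin. Ins1 had 0.013 without libraries 91 to 100, and the Iapp ratio 0.199 with stretch medians removed. With the acinar score, the Ins1 ratio had -0.037 with stretch medians removed, and the Iapp ratio 0.100 without libraries 91 to 100 and 0.120 without libraries above 25% acinar counts. With the folding score, Iapp had -0.097 in libraries above 50. The Ins1 ratio had -0.052 with stretch medians removed, -0.138 in libraries 50 or lower, -0.049 without libraries above 25% acinar counts and -0.109 without libraries 66 to 75.

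With the transcription factor score, Ins1 had -0.0029 on DESeq2 size factors, -0.0039 on variance-stabilised values, -0.342 in libraries 50 or lower, -0.146 without libraries 91 to 100 and -0.039 without libraries above 25% acinar counts. Ins2 had 0.239 with stretch medians removed, 0.385 on plain CPM, 0.00076 on totals without acinar and hormone genes, 0.191 in libraries above 50 and 0.106 without libraries 66 to 75. Iapp had 0.132, 0.390 and 0.154 with stretch medians removed, on plain CPM and in libraries above 50. The Ins1 ratio had 0.0031 on DESeq2 size factors, 0.035 on plain CPM, 0.0030 on totals without acinar and hormone genes, 0.00057 on variance-stabilised values, 0.059 in libraries 50 or lower, 0.122 without libraries 91 to 100 and 0.015 without libraries above 25% acinar counts. The Iapp ratio had 0.023 on plain CPM.

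Without libraries above 25% acinar counts, 4 score relations passed, against 8 with all libraries. Fewer libraries enter the leave-out fits, and otherwise the cause was not tested.

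Of the genes tested, 13.3% fell with Ins1 without libraries 91 to 100, against 27.7% with all libraries. With the stretch as a factor, 17.2% rose and 18.5% fell with Iapp, against 27.8% and 33.9%, and 11.0% rose and 5.66% fell with the ratio, against 29.1% and 24.5%. With no low-count filter, which adds genes with few counts, 7731 genes had a coefficient above 50%, against 3880. No paired analysis was possible because the labels put the libraries in no groups. Counting error is small for the 3 hormone genes, so the spread between libraries limits what can be read.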
